A study of Mus musculus with 8 samples.

Results

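Paneth cells sit at the base of the small intestinal crypts and secrete granules of antimicrobial proteins. The genes described are 10 Paneth cell genes that are not alpha-defensins: Lyz1, Mmp7, Ang4, Itln1, Mptx1, Mptx2, Habp2, Nupr1, Wnt3 and Clps. They were taken by gene symbol from a deposited table of 17634 genes, and all 10 were found and had enough counts to be tested. The samples were bulk RNA of crypts taken from the small intestine of C57BL/6N mice and collected 3 days after irradiation. Of the 8 samples, 4 were labelled WT and 4 miR-29ab1-/-, homozygous for loss of miR-29ab1, the cluster that encodes miR-29a together with miR-29b-1. All 8 had been irradiated, so the genotypes were compared only in the irradiated state. The sources used here do not give the radiation dose, the age or sex of the mice, or how the allele was made. The labels do not say how the mice were housed or paired, and p-values measure the spread between these libraries.

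Paneth cell granules are released into the crypt lumen, where lysozyme cleaves the bacterial cell wall, angiogenin-family ribonucleases and lectins act on microbes, and the metalloproteinase matrilysin cuts the inactive mouse alpha-defensin precursors into active peptides. The same cells supply Wnt, Notch and EGF receptor ligands to the neighbouring Lgr5+ stem cells. Wnt signalling through beta-catenin and TCF factors also drives Paneth cell maturation.

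The deleted locus encodes a pair of mature microRNAs that share a seed, the bases that pair with a target. Both are shown because the seed match was looked for in the 10 genes, with the seed (bases 2 to 8) in capitals, as RefSeq gives them on the minus strand of GRCm38.p6 at chr6:31062673-31062694 for miR-29a-3p and chr6:31063025-31063047 for miR-29b-3p.
mmu-miR-29a-3p: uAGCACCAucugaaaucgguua
mmu-miR-29b-3p: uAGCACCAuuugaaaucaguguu
The DNA letters that pair with this seed, TGGTGCT, occurred in none of the 10 genes' longest annotated 3′ UTRs (GENCODE M21), that is in 0 of 10. Of 12673 tested genes with an annotated 3′ UTR, 2131 (16.8%) held the match. The 3′ UTRs ranged from 79 bases for Mptx2 to 1889 for Wnt3, and 9 of the 10 were shorter than the median of the tested genes, 1333 bases. The absence says only that these letters are not in these stretches.

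Libraries held 9481201 to 16231099 counts. Alpha-defensins, the defining Paneth cell transcripts, made up 1.69 ± 0.187% of counts in WT and 2.50 ± 0.995% in the knockout (SD, n = 4), and the 10 genes together 0.851 ± 0.108% and 1.03 ± 0.390%. In bulk samples fewer cells of a type and less RNA per cell cannot be told apart. Other cell types moved with genotype: summed enterocyte markers spanned 1730 to 11361 CPM (counts per 1000000) in WT and 27285 to 93653 in the knockout, with 12 of 12 higher, and summed goblet cell markers 1996 to 4607 and 9274 to 14993. Summed fibroblast markers stood at 173 CPM in WT replicate 3 and at 196 and 200 in knockout replicates 3 and 4, against 14.0 to 50.8 in the other 5 libraries. The part of these cell types in the values of the 10 genes was not tested.

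None of the 10 genes passed the test between genotypes (edgeR's quasi-likelihood test, adjusted p under 0.05 over 12908 genes), while 47.3% of all tested genes did, 24.2% as higher and 23.1% as lower in the knockout. At an unadjusted p under 0.05 the share was 54.8% of all genes, and 2 of the 10 were past it, Lyz1 and Clps. In no gene of the 10 were the WT and knockout libraries fully apart, against 45.4% of all genes. The median absolute log2 fold change was 0.28 in the 10 genes and 0.51 over all tested genes, and the median standard error was 0.29 and 0.18. Libraries with the same replicate number tended to deviate together in their profiles. WT replicate 2, however, correlated more with knockout replicate 1 (0.447) than with knockout replicate 2 (0.311). The pairing is thus not settled for these numbers, and the block calls depend on it. With the replicate number as a block 56% of all genes were called. With the block 3 of the 10 were called, Lyz1 and Clps higher (28.4% of all genes were higher) and Mmp7 lower (27.5% were lower). DESeq2 also called Lyz1 and Clps as higher, 2 of the 10, against 22.7% of genes. With only genes of at least 50 counts on average tested, Lyz1 alone of the 10 was higher, against 27.2% of genes, and without both replicate 3 libraries Lyz1 and Clps were, against 22.3%.

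How counts were scaled shifted every value in 1 direction. Scaled by total counts in place of the TMM factors (trimmed mean of M-values), the median of all genes moved by −0.26 on the log2 scale, and the calls went from 3129 higher and 2976 lower to 2089 and 4011. Mmp7 was then called as lower (log2 fold change −0.68, edgeR adjusted p = 0.00706), 1 of the 10 against 31.1% of all genes, and Lyz1 and Clps remained above 0. Mmp7 was also the 1 gene of the 10 called as lower by limma on FPKM (33.2% of all genes) and with the block and total-count scaling together (39.1%). Relative to the median of all genes, the 10 log2 fold changes differed by at most 0.08 between the scalings. On that relative scale Clps stood at 0.94 with TMM factors and 0.88 with total counts, Lyz1 at 0.78 and 0.73, and Mmp7 at −0.44 and −0.46. Values below are CPM with TMM factors unless another scale is named.

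**Figure D1:**
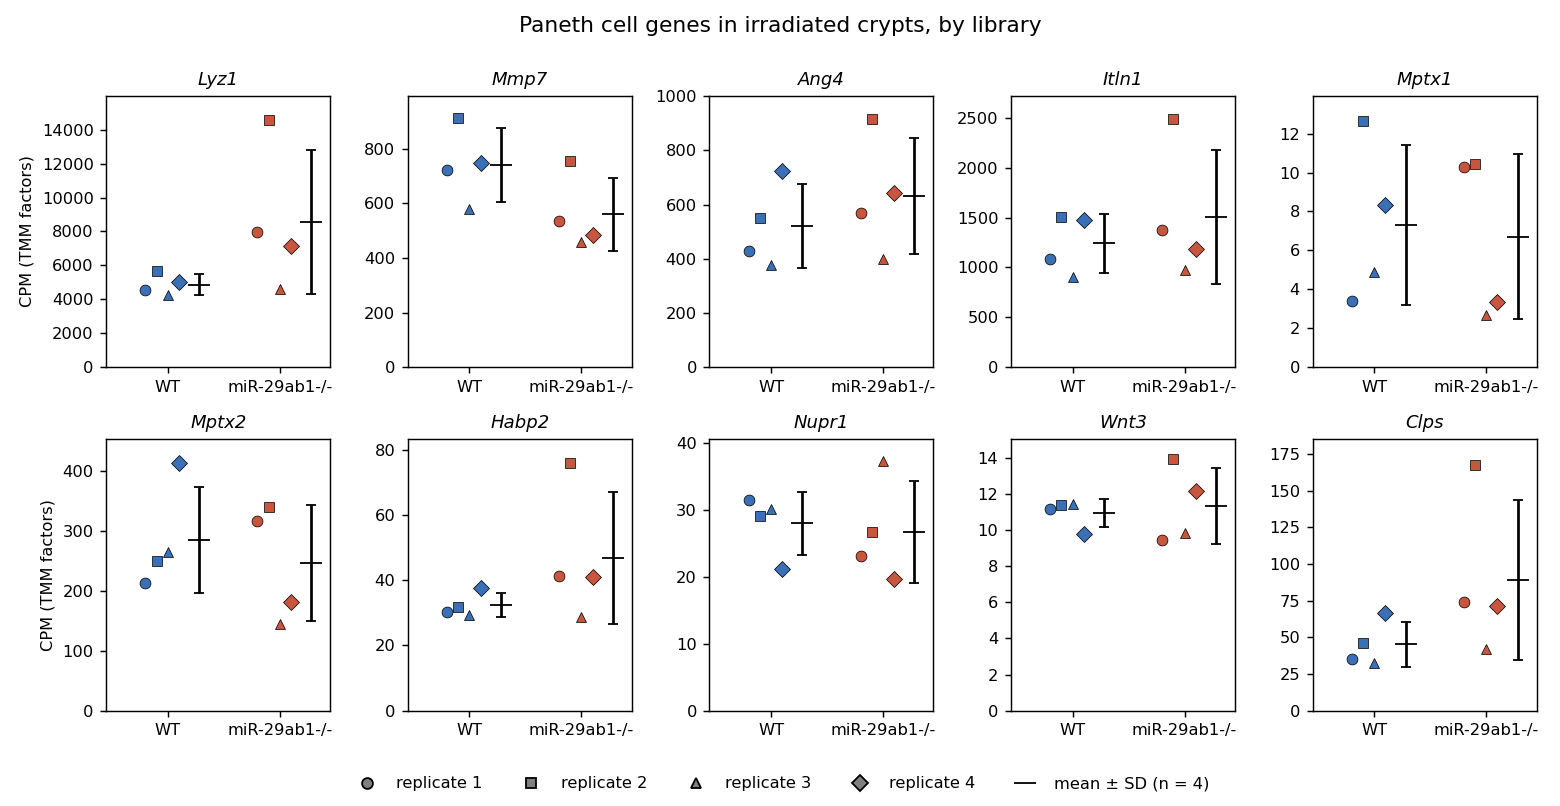
CPM (TMM factors, y axis, from 0) of the 10 genes in 4 WT and 4 miR-29ab1-/- libraries; each marker is 1 library, its shape gives the replicate number, and bars show the mean ± SD. The groups overlap in every panel, and knockout replicate 2 is the highest of the 8 libraries in 6 of them.

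Lyz1 (NCBI gene 17110) encodes the lysozyme of Paneth cell granules. It stood at 4554, 5639, 4237 and 5005 CPM in WT replicates 1 to 4 and at 7947, 14577, 4613 and 7121 in knockout replicates 1 to 4. The WT libraries lay within 1.33-fold of each other, the knockout libraries spread over 3.16-fold, and only knockout replicate 3 fell inside the WT range. Each knockout library exceeded the WT library of its number, in 4 of 4 pairs, which 66.5% of all tested genes also did in 1 direction or the other. The means were 4859 ± 608 and 8564 ± 4252 CPM (SD, n = 4), a log2 fold change of 0.82 (SE 0.32, 1.76-fold) with an edgeR adjusted p of 0.0612, and 0.70 (SE 0.23) with adjusted p = 0.0345 when the replicate number was a block. Without knockout replicate 2 the log2 fold change was 0.38 (edgeR adjusted p = 0.179), and without knockout replicate 3 it was 1.02 (edgeR adjusted p = 0.0135); in that last fit Lyz1, Clps and Habp2 were called as higher, 3 of the 10, against 24.5% of all genes. Lyz1 and its near-identical neighbour Lyz2, the lysozyme of macrophages, can share reads, and Lyz1 was the only gene of the 10 with counts that were not whole, in 3 libraries. Lyz2 stood at 8.58 ± 6.88 CPM in WT and 5.86 ± 4.94 in the knockout (edgeR adjusted p = 0.489, 0.0437 with the replicate block, as lower) and was highest in replicate 3 of each group, at 18.9 and 13.2 CPM. The macrophage genes C1qa and Csf1r were also highest in those libraries, at 12.1 and 9.44 CPM in WT replicate 3 and 14.6 and 11.0 in knockout replicate 3. Of 10 macrophage markers only Ctss, a lysosomal protease, was called, as higher, at 35.3 to 81.0 CPM in WT and 102 to 209 in the knockout. The median log2 fold change of the list was −0.04, and the other 9 markers summed to 29.4 to 72.2 CPM in WT and 17.9 to 89.8 in the knockout, which overlap.

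Mmp7 (NCBI gene 17393) encodes matrilysin, the protease that activates mouse alpha-defensins. Its levels were 722, 913, 579 and 747 CPM in WT replicates 1 to 4 and 535, 756, 460 and 486 CPM in knockout replicates 1 to 4. Every knockout library was below the WT library of its number, and knockout replicate 2, the highest of its group, lay above 3 of the 4 WT libraries. The means were 740 ± 137 and 559 ± 135 CPM (SD, n = 4), a log2 fold change of −0.40 (SE 0.20, 1.32-fold lower) with an edgeR adjusted p of 0.129, and −0.41 (SE 0.12) with adjusted p = 0.0201 under the replicate block. Without knockout replicate 2 it was −0.64 (edgeR adjusted p = 0.0161), a call shared by 24.7% of genes as lower in that fit. On the deposited length-normalised scale (FPKM) the groups did not overlap, at 727 to 1026 in WT and 454 to 664 in the knockout. The share of all genes apart on this scale was not counted. In CPM with TMM factors 45.4% of all genes were apart, in either direction, and Mmp7 was not. Limma on FPKM called 33.2% of all genes as lower.

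Among the 9 of the 10 genes with a RefSeq promoter window (250 bases before to 50 after a start site, GRCm38.p6; Clps had none), the TCF/LEF letters CTTTGAT, searched on both strands, occurred in Mmp7 only. They occurred in 1225 of all 32851 windows (3.73%). The match is shown because TCF factors carry the Wnt signal on which Paneth cells depend; it lies on the minus strand, so the plus strand at chr9:7692083-7692112, the strand of the gene, reads ATCAAAG, in capitals, starting at base 5 of the transcript from the upstream start site.
Mmp7: tgtcaggaaacATCAAAGtagctctgagaa
A match of letters is a description and not a site of binding.

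Ang4 (NCBI gene 219033), a microbicidal ribonuclease of the angiogenin family, stood at 429, 552, 375 and 723 CPM in WT replicates 1 to 4 and at 570, 917, 399 and 642 CPM in the knockout. WT replicate 4 was above 3 of the 4 knockout libraries, and the groups overlapped widely. The log2 fold change was 0.28 (SE 0.28; means 520 ± 155 and 632 ± 216 CPM, SD, n = 4) with an edgeR adjusted p of 0.437, and −0.01 with total-count scaling. The related ribonucleases rose: Ang was at 13.7 ± 0.956 CPM in WT and 27.9 ± 9.70 in the knockout (2.03-fold, edgeR adjusted p = 0.0059), and Rnase4 at 70.0 ± 9.78 and 138 ± 30.2 CPM (1.98-fold, edgeR adjusted p = 0.00203). Ang and Rnase4 share first exons, so their counts may share reads.

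Itln1 (NCBI gene 16429) encodes intelectin-1, a secreted lectin that binds microbial sugars. It was at 1080, 1509, 905 and 1472 CPM in WT replicates 1 to 4 and at 1374, 2485, 975 and 1185 CPM in the knockout. Knockout replicate 2 alone was above all WT libraries, and replicate 3 was the lowest of each group. The means were 1242 ± 297 and 1505 ± 673 CPM (SD, n = 4; log2 fold change 0.28, SE 0.31, edgeR adjusted p = 0.479), and the sign turned to −0.13 without knockout replicate 2 and to −0.02 with total-count scaling. Across the 8 libraries Ang4 and Itln1 were each other's nearest gene among the 10.

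The mucosal pentraxins Mptx1 and Mptx2, secreted relatives of C-reactive protein, were not called in either direction. Mptx2 (NCBI gene 100504232) stood at 212, 249, 265 and 413 CPM in WT replicates 1 to 4 and at 316, 339, 145 and 181 CPM in the knockout. Knockout replicates 3 and 4 were below every WT library, and replicates 1 and 2 above 3 of the 4. The log2 fold change was −0.22 (SE 0.31, edgeR adjusted p = 0.592). Mptx1 (NCBI gene 66289) had few counts, with 3.38, 12.6, 4.90 and 8.31 CPM in WT and 10.3, 10.4, 2.69 and 3.37 CPM in the knockout. Both genes were high in knockout replicates 1 and 2 and low in replicates 3 and 4, a split that was not seen in WT. The difference of Mptx1, −0.12 with an SE of 0.54 (edgeR adjusted p = 0.873), was measured on 27 to 151 counts a library and was 0.27 or −0.45 depending on the library left out. As paralogs the pair may share reads, and Crp, the third pentraxin listed, was at or under 3 counts in every library.

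Clps (NCBI gene 109791) encodes colipase, the cofactor of pancreatic lipase. It was at 35.4, 46.2, 32.2 and 66.5 CPM in WT replicates 1 to 4 and at 74.3, 168, 42.0 and 71.2 CPM in the knockout. Apart from knockout replicate 3, each knockout library was above every WT library, and all 4 exceeded the WT library of their number. All 4 pairs went in 1 direction in 66.5% of all tested genes. Clps had the highest fold change of the 10: means of 45.1 ± 15.5 and 88.8 ± 54.5 CPM (SD, n = 4), a log2 fold change of 0.98 (SE 0.40, 1.97-fold) with an edgeR adjusted p of 0.0732, and 0.85 (SE 0.28) with adjusted p = 0.0353 under the replicate block. Without knockout replicate 2 it was 0.42 (edgeR adjusted p = 0.283), without knockout replicate 3 1.21 (adjusted p = 0.0198) and without WT replicate 4 1.23 (adjusted p = 0.0494, edgeR). Pancreatic acinar cells also make colipase, and their part in this result was not tested. Of 13 acinar markers 8 were listed, 5 of these were at or under 3 counts in every library, and Amy2a5 was at 0 in all 8 libraries. Ctrb1 was at 0 in all 4 WT libraries and at 0.187 to 0.442 CPM in the knockout libraries, with at most 5 counts. Cpa1 was at 0 in WT and at up to 3 counts in 3 knockout libraries, and Cpb1 held 1 count, in knockout replicate 4. Prss2 was at 0.179 CPM in WT replicate 3 and at 0.172 and 0.0997 in knockout replicates 1 and 3. Cel was at 0.0705 CPM in WT replicate 1 and 0.177 in knockout replicate 2. Cela1, which was tested, stood at 9.13 ± 2.51 CPM in WT and 9.69 ± 4.06 in the knockout (edgeR adjusted p = 0.839). The summed acinar markers were 31.7 to 51.5 CPM in WT and 57.3 to 107 in the knockout, mostly Rnase1, a secreted ribonuclease made in many tissues, at 32.4 ± 7.43 and 68.5 ± 24.5 CPM, and without it they were 6.04 to 11.6 and 6.27 to 15.4 CPM. Among the lipases listed beside colipase, Pnliprp2 rose from 61.5 ± 23.9 to 365 ± 277 CPM (5.94-fold, edgeR adjusted p = 0.00948).

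Habp2 (NCBI gene 226243) encodes a hyaluronan-binding serine protease of plasma that is also a Paneth cell marker. Its values were 30.3, 31.8, 29.4 and 37.6 CPM in WT replicates 1 to 4 and 41.4, 76.1, 28.8 and 41.1 CPM in the knockout. Knockout replicates 1, 2 and 4 were above all WT libraries and replicate 3 was below all of them. The means were 32.3 ± 3.68 and 46.9 ± 20.4 CPM (SD, n = 4; log2 fold change 0.54, SE 0.26, 1.45-fold, edgeR adjusted p = 0.121; 0.71 and 0.0281 without knockout replicate 3, 0.15 and 0.517 without knockout replicate 2). Of the other 9 genes Habp2 followed Lyz1 most closely. Hepatocytes are the main source of plasma Habp2, and the summed hepatocyte markers stood at 1.02 to 2.60 CPM in WT and 2.59 to 6.61 in the knockout. The largest part of this sum was Ttr, at 1.45 ± 0.411 and 3.20 ± 1.59 CPM, which was not called (edgeR adjusted p = 0.0619). The part of hepatocytes in the Habp2 values was not tested.

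Nupr1 (NCBI gene 56312), a small nuclear protein induced by cell stress, stood at 31.5, 29.1, 30.2 and 21.1 CPM in WT replicates 1 to 4 and at 23.1, 26.8, 37.4 and 19.6 CPM in the knockout. Its highest library was knockout replicate 3, where 8 of the 10 genes had their knockout minimum, and replicate 4 was the lowest of each group. The log2 fold change was −0.07 (SE 0.21, edgeR adjusted p = 0.812). Of 7 partners in the stress response, Ddit3, a stress-induced transcription factor, rose from 7.05 ± 0.964 to 21.9 ± 5.98 CPM (3.11-fold, edgeR adjusted p = 0.00115), and Trib3, a pseudokinase, rose 3.81-fold (edgeR adjusted p = 0.00698). Asns, asparagine synthetase, fell 1.80-fold (edgeR adjusted p = 0.00179), and the other 4 were not called (with the replicate block 4 of the 7 were higher and 1 lower).

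Wnt3 (NCBI gene 22415), the Wnt ligand that Paneth cells pass to stem cells, was the steadiest of the 10. It stood at 11.2, 11.4, 11.5 and 9.80 CPM in WT replicates 1 to 4 and at 9.44, 14.0, 9.87 and 12.2 CPM in the knockout. Knockout replicate 1 was below the WT range, replicate 3 inside it, and replicates 2 and 4 above it. The log2 fold change was 0.05 (SE 0.17, edgeR adjusted p = 0.819), −0.22 with total-count scaling. Wnt3 varied by 7.17% in WT and 18.6% in the knockout (coefficient of variation), where Lyz1 varied by 12.5% and 49.6% and Clps by 34.4% and 61.4%.

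**Figure D2:**
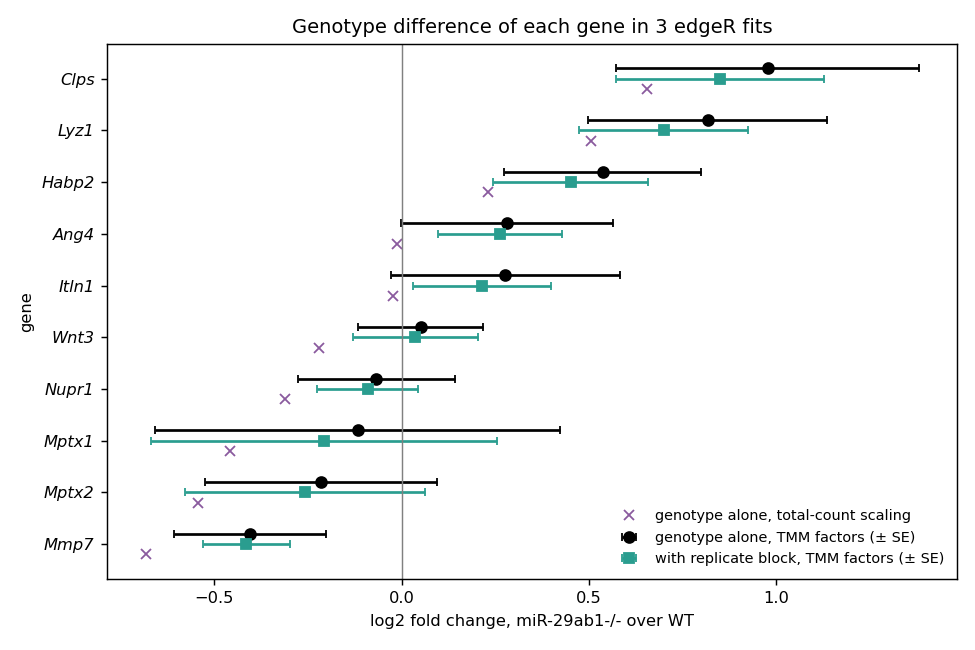
Log2 fold change of each gene, miR-29ab1-/- over WT (x axis), in edgeR fits with genotype alone (circles), with the replicate number as a block (squares) and with total-count scaling (crosses); bars on circles and squares are ± SE. Clps and Lyz1 lie highest at 0.98 and 0.82, Mmp7 lowest at −0.40, and the crosses lie to the left of the circles for all 10 genes.

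Between genes, levels were compared per length, as FPKM. Lyz1 led with 4661 ± 470 FPKM in WT and 6614 ± 2749 in the knockout (SD, n = 4) and ranked 8 and 12 among all genes by mean FPKM. Itln1 (1332 ± 292 and 1310 ± 478), Ang4 (995 ± 289 and 986 ± 278), Mmp7 (857 ± 128 and 532 ± 90.9) and Mptx2 (549 ± 176 and 377 ± 110) came next, then Clps (116 ± 39.0 and 183 ± 99.8), Nupr1 (61.2 ± 10.7 and 49.1 ± 19.2), Habp2 (16.7 ± 2.02 and 19.9 ± 6.81), Mptx1 (11.8 ± 6.39 and 8.46 ± 4.62) and Wnt3 (4.56 ± 0.666 and 3.77 ± 0.756). The order of the means was the same in both genotypes. Neighbours whose libraries overlapped in both groups were Itln1 with Ang4, Mmp7 with Mptx2, and Mptx1 with Wnt3, so these pairs are not ordered beyond their spread. Ang4 with Mmp7 and Habp2 with Mptx1 overlapped in WT alone, and Mptx2 with Clps in the knockout alone. Ang4 and Mmp7 overlapped in WT, at 777 to 1389 and 727 to 1026 FPKM, and not in the knockout, where all Ang4 values (728 to 1334) exceeded all Mmp7 values (454 to 664).

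**Figure D3:**
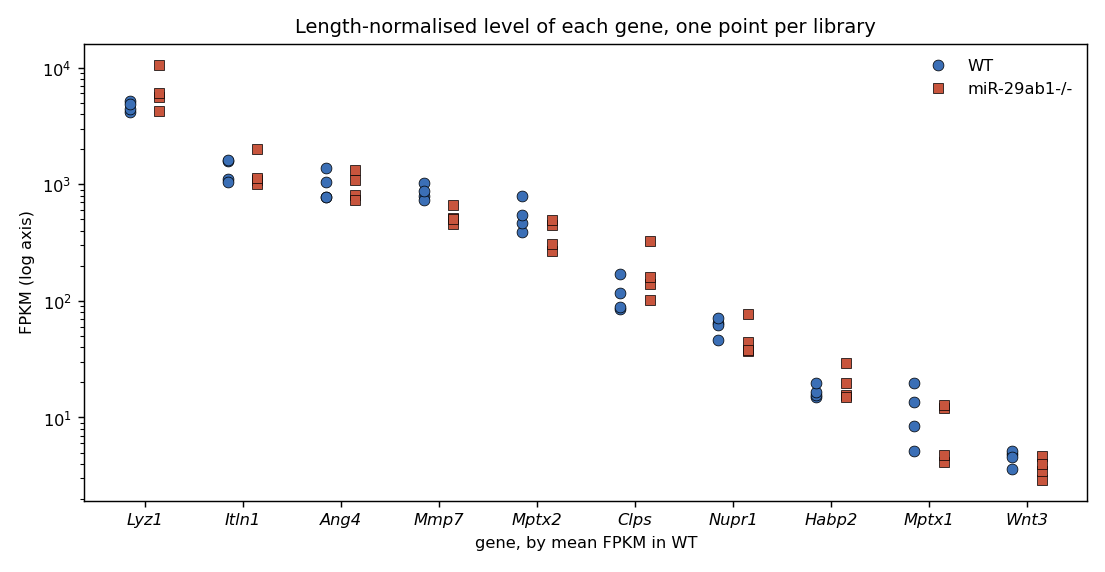
Length-normalised level (FPKM, logarithmic y axis) of the 10 genes, ordered by their mean in WT, with 1 circle per WT library and 1 square per miR-29ab1-/- library. Lyz1 is highest and Wnt3 lowest in both groups. Mmp7 alone of the 10 has squares entirely below circles. The share of all genes that do so was not counted. In CPM with TMM factors 45.4% of all genes did not overlap, in either direction.

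Expressed against Lyz1 in the same library, which removes the scaling between libraries, 3 of the other 9 genes did not overlap between genotypes, Mmp7, Mptx2 and Itln1, all lower in the knockout. Of all other tested genes 31.2% did not overlap on the same scale, 26.4% as lower, so the share is near that of any gene and the ratios are given as a description of these 3. These ratios were chosen after the values had been seen. Per 100 Lyz1 counts there were 15.9, 16.2, 13.7 and 14.9 Mmp7 counts in WT replicates 1 to 4 and 6.73, 5.19, 9.97 and 6.82 in the knockout. The groups were well apart, the highest knockout library being below the lowest WT library. The means were 15.2 ± 1.13 and 7.18 ± 2.01 (SD, n = 4), 2.17-fold lower in the knockout (two-sided exact permutation p = 0.0286, the smallest that 4 against 4 libraries can give; 0.109 adjusted over 19 ratios). The log2 difference of −1.12 ranged from −1.29 to −0.97 when any library was left out. Mptx2 also did not overlap, at 5.89 ± 1.77 and 3.00 ± 0.740 per 100 Lyz1 counts (log2 difference −0.96), nor did Itln1, at 25.3 ± 3.52 and 18.0 ± 2.09 (−0.49), although its replicate 3 libraries nearly met at 21.4 and 21.1 (both exact permutation p = 0.0286, adjusted 0.109). The 19 ratios were 9 to Lyz1 and 10 to the summed alpha-defensins, and none was past 0.05 after adjustment. With 4 against 4 libraries this says little, since many ratios would have to reach the smallest p for any to pass.

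Of the other 6 genes, 5 were lower per Lyz1 count in the knockout on average but overlapped: Ang4 by −0.44 on the log2 scale, Habp2 by −0.25, Wnt3 by −0.67, Mptx1 by −0.91 and Nupr1 by −0.79. Lyz1, the base, itself had a log2 fold change of 0.82, so a gene with a smaller one comes out lower on this scale. Ang4, Habp2 and Wnt3 did so although their own log2 fold changes were 0.28, 0.54 and 0.05. The share of all genes lower on average per Lyz1 count was not counted. Clps stood at 0.921 ± 0.273 and 0.999 ± 0.108 per 100 Lyz1 counts and overlapped (log2 difference 0.15, exact permutation p = 0.457). Lyz1 took 62.8 ± 2.85% of the counts of all 10 genes in WT and 72.5 ± 2.72% in the knockout. With the summed alpha-defensins as the base, Lyz1 stood at 31.7 ± 3.83 and 30.3 ± 2.18 per 100 defensin counts (log2 difference −0.06, exact permutation p = 0.6), and Mmp7 at 4.80 ± 0.639 and 2.20 ± 0.747 (2.26-fold lower, with no overlap). Mptx2 was the other gene whose groups were apart on that base (log2 difference −1.02), making 2 of 10 against 28.9% of all other genes (24.2% as lower). All 4 knockout libraries held less Mmp7 per alpha-defensin count, the transcripts of its substrates, than any WT library (exact permutation p = 0.0286, adjusted 0.109). Mmp7 itself was not called (log2 fold change −0.40, edgeR adjusted p = 0.129), and the median log2 fold change of the alpha-defensins was 0.75. Processing of the defensins was not tested.

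**Figure D4:**
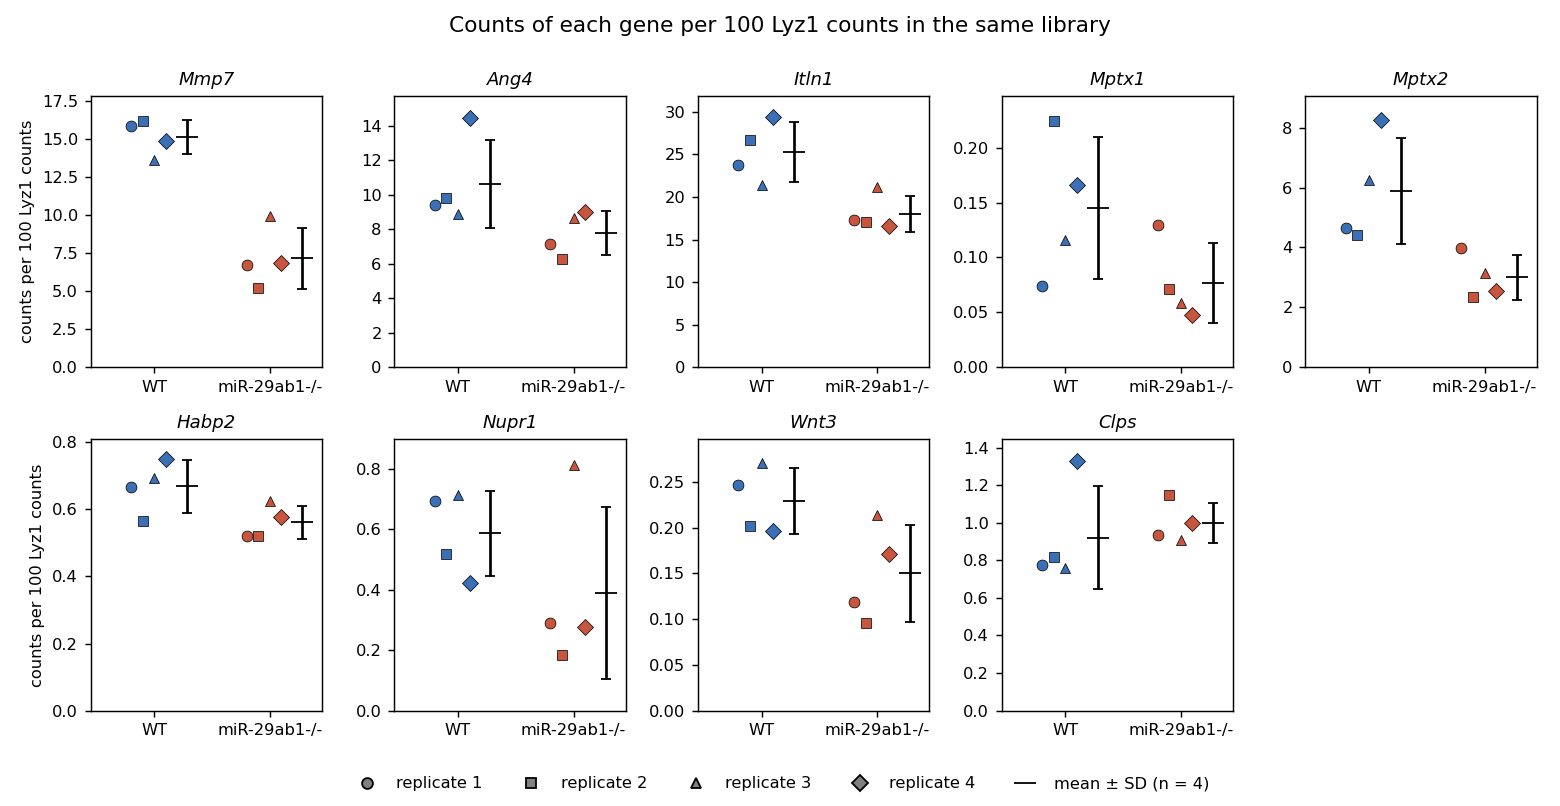
Counts of the other 9 genes per 100 Lyz1 counts in the same library (y axes from 0), by genotype and replicate, with the mean ± SD. Mmp7 spans 13.7 to 16.2 in WT and 5.19 to 9.97 in miR-29ab1-/-, Mptx2 and Itln1 do not overlap either, and Clps does not separate.

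Library by library, much of the spread was common to several genes. Knockout replicate 2 held the highest value of its group in 9 of the 10 genes, and of all 8 libraries in 6: Lyz1, Ang4, Itln1, Habp2, Wnt3 and Clps. Knockout replicate 3 held the lowest value of its group in 8 genes, and WT replicate 3 in 6. Together the 10 genes made up 1.60% of counts in knockout replicate 2 and 0.710 to 0.959% in the other knockout libraries, against 0.747 to 0.952% in WT. The alpha-defensins, too, had their knockout maximum in replicate 2, at 3.86% of counts, and their minimum in replicate 3, at 1.48%.

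**Figure D5:**
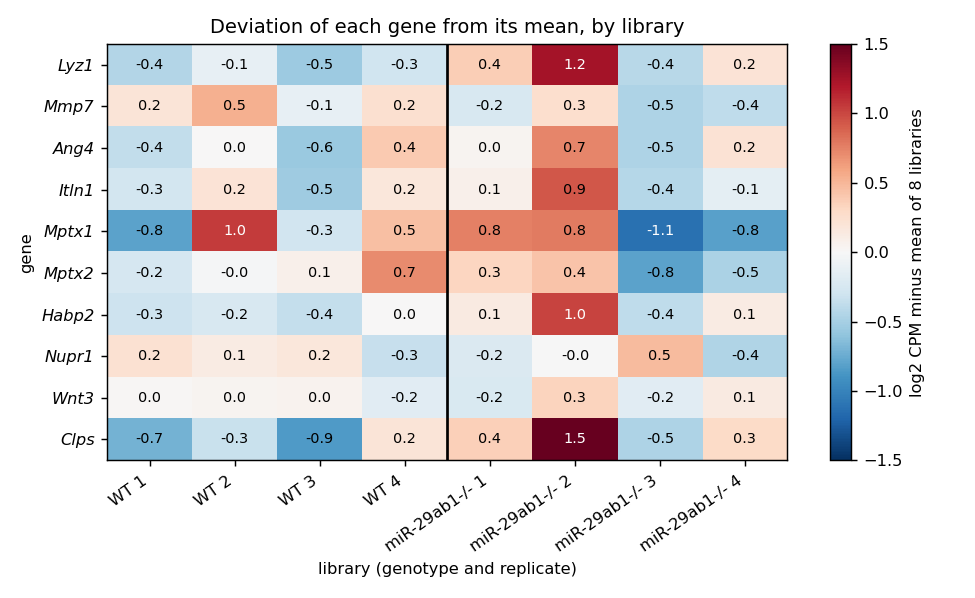
Log2 CPM of each gene (rows) in each library (columns) minus the gene's mean over the 8 libraries, as colour and number. Lyz1 and Clps reach 1.2 and 1.5 in knockout replicate 2, and most genes are below their mean in replicate 3 of both genotypes.

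Likeness of pattern was measured as the root mean square difference between log2 CPM profiles centred on their means, over 8 libraries and among 10942 tested genes with a mean of at least 50 counts. The genes nearest to Lyz1 were Tmed6 (0.0924), a p24-family protein of the secretory pathway, the alpha-defensin Defa17 (0.123) and Aadac (0.131), an esterase of the endoplasmic reticulum. Within the 10, Habp2 was nearest to Lyz1 at 0.182 and Nupr1 farthest from it at 0.719, and the nearest gene to Clps was Lyz1 (0.262). Ang4 and Itln1 lay 0.183 apart. Mmp7 was nearest to Wnt3 (0.322), Mptx2 to Mmp7 (0.393) and Mptx1 to Mptx2 (0.521). The measure counts the size of a gene's swings as well as their direction. A steady gene such as Wnt3 can therefore lie near a gene without following it.

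Other genes of the same cells were read from lists written with earlier results of these data known, so they are described and not tested. Of 21 tested alpha-defensins 9 were higher and 0 lower in the knockout, with a median log2 fold change of 0.75 (range 0.19 to 1.63), against a median of 0.03 over all genes and 0.16 in the 10 genes. That count ranged from 4 to 17 when 1 library was left out: it was 4 without knockout replicate 1, 5 without knockout replicate 2 or WT replicate 3, and 17 without knockout replicate 3. It was 4 with limma on FPKM and with replicates 1 to 3 alone, and 12 with the replicate block. Of 12 regulators of Paneth cell fate and position 6 were higher and 1 lower (median 0.34). For both lists the shares over all genes were 24.2% higher and 23.1% lower. Atoh1, the secretory fate factor, rose from 26.3 ± 3.09 to 39.5 ± 3.30 CPM, and Tcf7l2, the TCF factor of the crypt, from 26.7 ± 4.66 to 46.2 ± 9.04 (edgeR adjusted p = 0.00394 and 0.00624). Neither was called with total-count scaling, under which 0 regulators were higher and 3 lower, against 31.1% of all genes lower. Ephb3, the receptor that holds Paneth cells at the crypt base, fell from 59.8 ± 10.2 to 31.0 ± 6.41 CPM (1.93-fold, edgeR adjusted p = 0.00282). The count of regulators higher was 2 without WT replicate 1, and 3 without WT replicate 2 or 3 or knockout replicate 1, 2 or 4.

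Of 8 niche signals listed beside Wnt3, 6 were higher and 0 lower (median 0.86). With total-count scaling 3 were higher, and with limma on FPKM 2 were. With the replicate block or without knockout replicate 3, 1 was lower. The Notch ligand Dll1 rose from 18.8 ± 2.92 to 40.2 ± 6.69 CPM, the EGF receptor ligand Tgfa from 28.0 ± 1.96 to 42.7 ± 7.00 CPM, and Bst1, an ectoenzyme of Paneth and other cells, from 22.9 ± 18.0 to 263 ± 139 CPM (edgeR adjusted p = 0.0013, 0.00536 and 0.00376). Tgfa was not called with total-count scaling (log2 fold change 0.33, edgeR adjusted p = 0.112). Of 8 tested granule and antimicrobial genes outside the 10, Ang and Pigr, the receptor that carries IgA across the epithelium, were higher (Pigr 2.06-fold, from 732 ± 188 to 1506 ± 172 CPM, edgeR adjusted p = 0.00358), 0 were lower, and the median was 0.19. The count higher was 4 without knockout replicate 2, and 2 were lower with the replicate block or without knockout replicate 4. Enterocyte and goblet cell markers moved with these lists too, and their part was not tested. Of 8 Lgr5+ stem cell markers, which mark the cells that receive Wnt3, 4 were lower and 0 higher (median −0.50), and 2 were lower without knockout replicate 1. In the fit on genotype alone with TMM factors, 24.2% of all genes were higher and 23.1% lower.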

How the data were processed

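Small intestinal crypt RNA of 8 samples was extracted with TRIzol, per the labels' protocols. The submitters' processing notes list HISAT2 and DESeq2 with no version or role. Genome build, read counter and strandedness were "not given in the sources used here". Per the file headers and values, the deposited table gives expected counts per gene and library, rounded here to whole numbers, and length-normalised values taken as FPKM from their size, both made by the authors. The 10 genes and all lists were chosen with earlier results of these data known.

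Counts were tested with edgeR 4.0.16 (R 4.3.3; filterByExpr, TMM factors, quasi-likelihood test on genotype, Benjamini-Hochberg over 12908 genes, threshold 0.05). Alternatives were other scalings and filters, DESeq2 1.42.0, limma 3.58.1 on log2(FPKM + 0.1), each library left out, and the replicate number as a block. Same-numbered libraries correlated in their deviations from the group means (0.504, 0.311, 0.485 and 0.524), against −0.478 to 0.447 for other pairs. The numbers were therefore taken, from these same values, to pair libraries. The 0.447 of WT replicate 2 with knockout replicate 1 exceeded the 0.311 of replicate 2 in both groups. What a number stands for is not in the labels. No replicate pair agreed within sampling noise. Named besides the 10 genes were up to 3 genes a list by smallest p and the 3 genes nearest to Lyz1. The lysozyme, angiogenin, pentraxin and intelectin families were named too. Outside this rule, C1qa, Csf1r, Amy2a5, Ctrb1, Cpa1, Cpb1, Prss2 and Cel were named after their values were seen. The edgeR script was tested on simulated data. Intervals of counting error are not given, since spread between libraries exceeds them. No protein sequences were used here.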

Additional observations from a re-analysis of the deposited data

Results flagged for a closer look

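In groups of 4 libraries, a library was singled out where its gap to the nearest other took more of the group's range than Dixon's 95% critical value. Chance gives about 1 in 20 groups if they are independent and normal. Here 44 were checked and 7 met it. The groups share libraries and the ratios share Lyz1 counts, so these counts cannot be compared with that rate. Wnt3 was 9.80 CPM in WT replicate 4, against 11.2 to 11.5 in the other WT libraries. Ang4 stood at 14.5 counts per 100 Lyz1 counts in WT replicate 4 (others 8.86 to 9.80), and Clps at 1.33 in the same library (others 0.759 to 0.819). In knockout replicate 3, Itln1 was at 21.1 per 100 Lyz1 counts (others 16.6 to 17.3) and Nupr1 at 0.811 (others 0.184 to 0.290). Lyz2 was 18.9 CPM in WT replicate 3 (others 4.85 to 5.57) and 13.2 CPM in knockout replicate 3 (others 2.30 to 4.12). These 7 values come from 3 libraries: WT replicates 3 and 4 and knockout replicate 3.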

How the results depend on the processing

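All genes higher numbered 2040 with limma on FPKM and all genes lower 5044 with the replicate block and total-count scaling, against 3129 and 2976. Of the 10 genes, 1 was higher with a mean of at least 50 counts (Lyz1, edgeR adjusted p = 0.0488; 27.2% of all genes were higher), 2 with the replicate block (28.4%), 2 with DESeq2 (22.7%) and 2 without both replicate 3 libraries (22.3%), and 0 to 3 when 1 library was left out. With total-count scaling (31.1% of all genes lower), limma (33.2%), the replicate block (27.5%), and the block with total-count scaling (39.1%), 1 was lower (Mmp7), and 0 to 1 with 1 library left out. The block changed no other call among the 10.

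Signs turned for Ang4 (total-count scaling −0.011, limma −0.012, block with total-count scaling −0.0079; −0.0057 to 0.48 with 1 library left out), Itln1 (−0.023, −0.059 and −0.057; −0.13 to 0.44) and Wnt3 (−0.22, −0.28 and −0.23, upper-quartile factors −0.041, replicates 1 to 3 alone −0.066; −0.12 to 0.11). With replicates 1 to 3 alone Mptx1 was 0.17 and Mptx2 0.12. With 1 library left out Mptx1 ran from −0.45 to 0.27, Mptx2 from −0.47 to 0.017, Nupr1 from −0.27 to 0.0050 and Lyz2 from −1.33 to 0.18. Lyz1 kept its sign (0.38 to 1.02), as did Mmp7 (−0.64 to −0.29), Clps (0.42 to 1.23) and Habp2 (0.15 to 0.71). Leaving out both replicate 3 libraries, and the block with total-count scaling, were added after seeing the data. The cause of each change was not tested. Mptx1 had the fewest counts of the 10, 27 to 151 a library.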
